A study of Homo sapiens with 2 samples.

Results

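The nuclear-encoded genes of the mitochondrial respiratory chain were examined in A549 cells that overexpressed the Notch1 intracellular domain. Members were all genes whose symbol begins with NDUF, UQCR, COX4, COX5, COX6, COX7, COX8 or ATP5, together with SDHA, SDHB, SDHC and SDHD. This rule took 97 of the 19198 genes measured, with 46 in complex I, 4 in complex II, 9 in complex III, 19 in complex IV and 19 in complex V. By their known roles, 75 code for structural subunits, 11 for assembly factors or related proteins and 7 for isoforms used in few tissues, while 2 are copies of another member and 2 are readthrough transcripts that join a member to its neighbour.

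A549 is an established line from a human non-small cell lung cancer. The study made mRNA sequencing libraries from A549-NICD1 cells, labelled as NICD1 overexpression, and from A549-Vector cells, labelled as the vector control. NICD1 is the active fragment that proteolysis frees from the Notch1 receptor, and it moves to the nucleus to switch on target genes with the DNA-binding protein RBPJ. The study's methods describe lentiviral vectors that carry NICD1 and stable lines kept by antibiotic selection, but how the sequenced cells were made is not given in the sources used here. Each group had 1 library. No difference described here therefore has a replicate check, no test between conditions could be made, and intervals are 95% Clopper-Pearson intervals that cover the counting of reads only.

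The respiratory chain is a set of protein complexes in the inner mitochondrial membrane. Complex I takes electrons from NADH and complex II takes them from succinate. Both pass them through ubiquinone to complex III, then through cytochrome c to complex IV, which reduces oxygen. The protons pumped on the way drive complex V, the ATP synthase. Most subunits are encoded in the nucleus and the rest in mitochondrial DNA, so that the cell has to make both in proportion. The transcription factors NRF1, GABPA and YY1 are known for binding the promoters of many of these nuclear genes.

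The values were read as FPKM, reads of a gene divided by its length and by the depth of the library, since their unit is not given. The depth worked out from them was 48602848 reads for A549-Vector and 48528434 reads for A549-NICD1. Reads were not marked by molecular identifiers, so they are not independent molecules. NOTCH1 was at 5.40 FPKM in A549-Vector against 2865 in A549-NICD1, a count that includes reads of the transgene, and RFC4 was at 39.5 and 4075 FPKM. The labels name NICD1 overexpression alone, and the source of the RFC4 reads was not tested. The label A549 was checked on 16 genes known from that line. Of these, 9 were below 1 FPKM in both libraries, 4 of which (KRT7, KRT19, FGA and FGB) were listed at 0 in both, while KRT8 was at 85.9 FPKM in A549-Vector against 176.2 in A549-NICD1. The median of the list was 0.427 FPKM in A549-Vector against 0.359 in A549-NICD1, and its sum was 180.0 and 325.6 FPKM. Of 9 genes known from the kidney line HEK293, 8 had values of 1 FPKM or above in each library, with medians of 27.8 and 20.1 FPKM. The libraries thus lacked several genes that define the labelled line, and the part of this in the values below was not tested.

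Promoters of the members were read first, since these genes are known for shared control elements. Among the 88 members with at least 1 FPKM in a library, 71 matched a RefSeq promoter (GRCh38.p14, 250 bases before to 50 bases after the transcription start). The NRF1 site, searched as GCGCA, any base and then GCGC, was found on either strand in 16 of the 71, or 22.5%, against 8.79% of the promoters of all genes in the tables that matched and 6.28% of all promoters of this length. The letters CCGGAAG, the core bound by GABPA and other ETS factors, were found in 20 of 71, or 28.2%, against 14.5% and 10.7%. The letters AAGATGGC of the YY1 site were found in 11 of 71, or 15.5%, against 4.01% and 3.03%. For GGGCGG, the box of SP and KLF factors, members did not stand out in this way, with 56.3% against 59.5% of genes in the tables and 44.6% of all promoters. The letters GTGGGAA of the RBPJ site, through which NICD1 acts, were found in 8 of 71, or 11.3%, against 5.90% and 6.28%. No pattern holds another, though neighbouring matches can share end letters. Members had to reach 1 FPKM in a library, while the genes and promoters set beside them were not filtered by level. How far this sets the shares apart was not tested. These matches are letters in a window, not sites shown to be bound.

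The letters were also counted among the structural subunits of each complex. The NRF1 letters were found in 6 of 32 promoters of complex I, 2 of 3 of complex II, 4 of 7 of complex III, 0 of 9 of complex IV and 3 of 11 of complex V. The ETS letters were found in 5 of 32 promoters of complex I, 2 of 3 of complex II, 3 of 7 of complex III, 5 of 9 of complex IV and 4 of 11 of complex V. The YY1 letters were found in 6 of 32, 1 of 3, 1 of 7, 0 of 9 and 3 of 11 in the same order. The RBPJ letters were found in 2 of 32, 1 of 3, 1 of 7, 3 of 9 and 1 of 11. With so few promoters in most complexes, no difference between them is read from these counts.

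To show these elements, 1 promoter of each complex is printed 5′ to 3′ on the gene's strand, chosen after the matches and the changes were seen. Capitals mark matches to the NRF1, ETS or YY1 letters on either strand, so that CTTCCGG is the ETS core read on the other strand. Matches to the RBPJ letters are not in capitals, and NDUFA9, SDHD and COX5B hold 1 each.
NDUFA9 (complex I, chr12:4648864-4649163, plus strand): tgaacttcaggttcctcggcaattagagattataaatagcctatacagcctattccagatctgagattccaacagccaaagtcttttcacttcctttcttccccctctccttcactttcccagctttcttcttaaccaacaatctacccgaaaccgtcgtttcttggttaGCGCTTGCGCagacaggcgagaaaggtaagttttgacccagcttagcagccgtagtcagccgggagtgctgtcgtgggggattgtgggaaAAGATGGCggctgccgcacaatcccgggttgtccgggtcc
SDHD (complex II, chr11:112086623-112086922, plus strand): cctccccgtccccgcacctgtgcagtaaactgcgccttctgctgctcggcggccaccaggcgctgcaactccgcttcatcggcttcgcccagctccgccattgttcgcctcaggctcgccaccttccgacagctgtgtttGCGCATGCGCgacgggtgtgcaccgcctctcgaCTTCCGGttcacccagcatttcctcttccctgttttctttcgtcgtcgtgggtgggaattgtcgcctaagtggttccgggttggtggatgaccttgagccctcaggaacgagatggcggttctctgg
UQCR11 (complex III, chr19:1605413-1605712, minus strand): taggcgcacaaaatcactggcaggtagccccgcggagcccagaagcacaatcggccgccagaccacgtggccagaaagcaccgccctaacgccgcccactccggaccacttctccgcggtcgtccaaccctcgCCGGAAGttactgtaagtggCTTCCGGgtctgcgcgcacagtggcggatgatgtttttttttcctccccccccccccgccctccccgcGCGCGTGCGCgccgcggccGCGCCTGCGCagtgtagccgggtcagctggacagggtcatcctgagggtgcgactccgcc
COX5B (complex IV, chr2:97645812-97646111, plus strand): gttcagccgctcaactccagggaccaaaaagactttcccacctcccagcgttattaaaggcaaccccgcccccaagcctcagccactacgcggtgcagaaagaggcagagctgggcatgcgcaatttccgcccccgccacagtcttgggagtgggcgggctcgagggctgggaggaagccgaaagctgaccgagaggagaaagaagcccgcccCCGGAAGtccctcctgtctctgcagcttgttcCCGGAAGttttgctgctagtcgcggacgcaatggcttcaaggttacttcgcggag
ATP5I, now named ATP5ME (complex V, chr4:674227-674526, minus strand): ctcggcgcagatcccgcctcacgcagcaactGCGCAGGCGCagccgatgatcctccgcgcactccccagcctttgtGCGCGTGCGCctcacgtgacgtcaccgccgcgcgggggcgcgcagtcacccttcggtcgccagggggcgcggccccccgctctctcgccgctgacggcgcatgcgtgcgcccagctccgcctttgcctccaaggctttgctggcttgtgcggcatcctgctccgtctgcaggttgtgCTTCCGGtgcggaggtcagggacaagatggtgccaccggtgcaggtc

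Counted from the start site, NDUFA9 had its NRF1 match at base -80 and its YY1 match at base 11. SDHD had an NRF1 match at -110 and an ETS match at -77. UQCR11 had both its NRF1 matches close to the start, at -29 and -10, and ETS matches at -117 and -97. COX5B had ETS matches at -37 and -5 and none of the NRF1 letters. ATP5I had NRF1 matches at -219 and -174 and an ETS match at 4.

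Most respiratory chain genes were abundant in both libraries, and their levels kept nearly the same order. Of the 97 members, 88 reached 1 FPKM in at least 1 library and 82 had a mean of 10 FPKM or more. The median level of the 75 structural subunits was 87.1 FPKM in A549-Vector against 85.6 in A549-NICD1. The highest level was that of ATP5B, the catalytic beta subunit of ATP synthase, at 455 FPKM in A549-Vector against 431 in A549-NICD1. Across the 88 members, the log2 levels of both libraries had a Pearson r of 0.996, a description over genes that share the libraries. All 97 members together held 2.29% of the summed FPKM in A549-Vector and 2.18% in A549-NICD1.

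**Figure D1:**
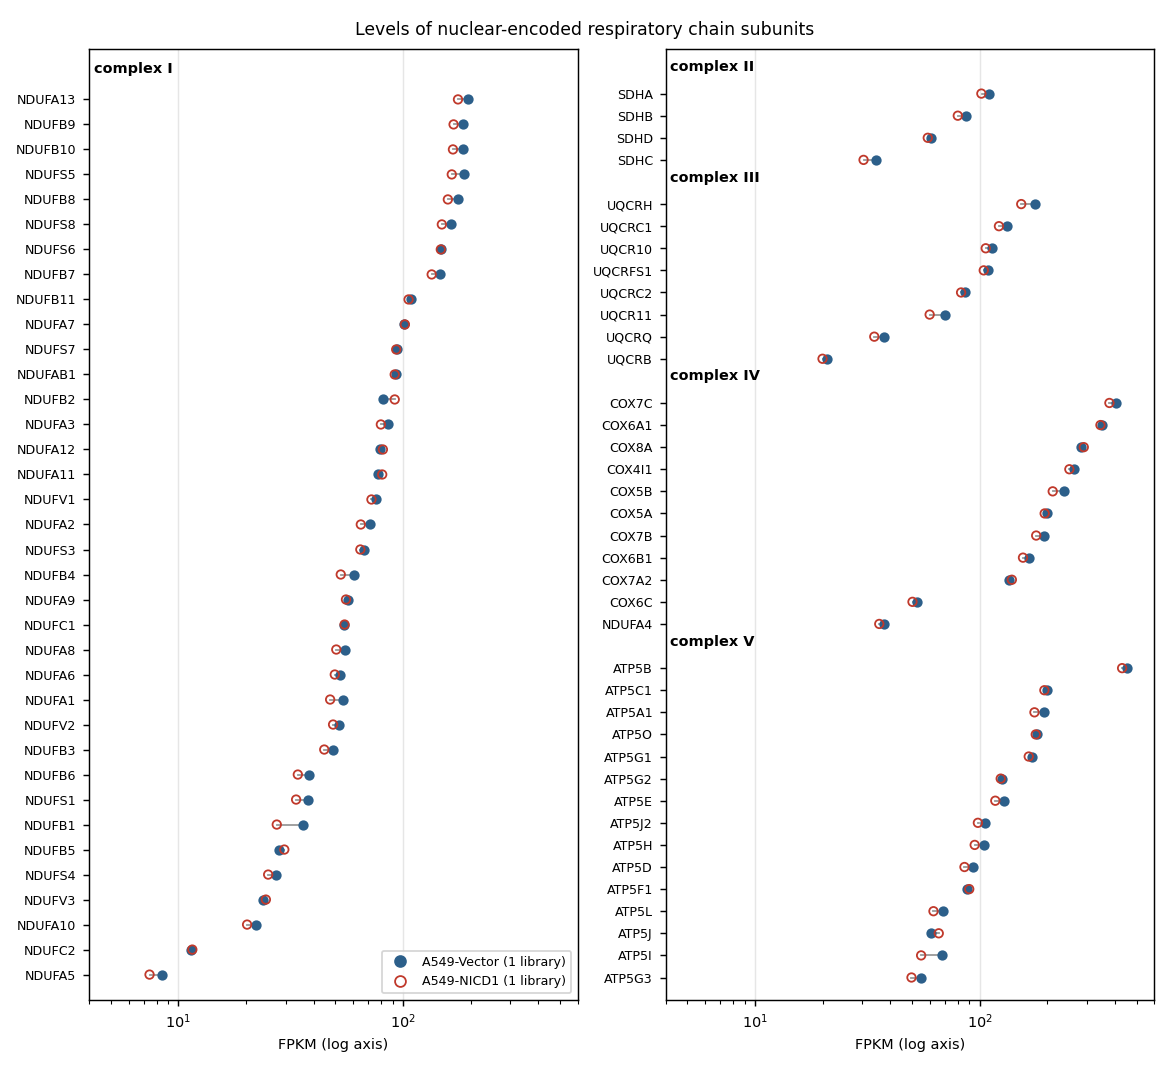
Level of 74 of the 75 structural subunits in A549-Vector (filled) and A549-NICD1 (open), in FPKM on a log axis, by complex and ordered by mean level, with 1 library per group. The pairs of points lie close together, from NDUFA5 at 8.43 and 7.44 FPKM to ATP5B at 455 and 431 FPKM.

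FPKM divides by gene length, and among subunits a longer gene went with a lower level (Spearman rho of -0.41 over 75 genes, a description). NDUFA5, the lowest subunit of complex I, was at 8.43 FPKM in A549-Vector against 7.44 in A549-NICD1, with a length of at least 5592 bases behind its value. UQCRB, the lowest of complex III, was at 20.8 and 19.97 FPKM, with at least 4903 bases. These lengths were worked out from the values, and how far they set the low levels was not tested. The change between libraries does not depend on the length, and its Spearman rho with length was 0.065 over the same genes.

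No structural subunit differed by more than 0.5 on the log2 scale between the libraries. In RNA from many cells, fewer cells that use a gene and less RNA per cell cannot be told apart. The log2 fold change compares A549-NICD1 with A549-Vector after the libraries were brought to one scale by a trimmed mean, with 0.1 FPKM added to each value. Among all 12449 genes with 1 FPKM or more in a library, 3.04% were higher by over 0.5 and 3.98% were lower by over 0.5. Among the 88 members, 1 was higher, COX7A1, and 0 were lower. COX7A1 reached 1 FPKM only in A549-NICD1, at 1.05 FPKM against 0.540 in A549-Vector. It was counted only through the library where it was high, so nothing is read from this count. Among the 7122 genes with a mean of 10 FPKM or more, 1.38% were higher and 0.716% lower, and of the 82 members at such levels 0 were either. By this scaling, 77 of the 88 members were within 10% of their level in A549-Vector and 85 were within 20%. The same shares of all 12449 genes are not given here, so nothing is read from these counts. At a mean of 10 FPKM or more, 89.0% of members against 65.3% of genes were within 10%. The interquartile range of these members was 0.11 on the log2 scale, against 0.20 for all genes with this mean or more. Only the minimum level was matched. The median level in A549-Vector was 83.6 FPKM for these members against 24.3 for such genes. How far higher levels, with less counting error, set the narrower spread was not tested. The range was 0.07 for 74 cytosolic ribosomal protein genes and 0.16 for 77 mitochondrial ones.

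**Figure D2:**
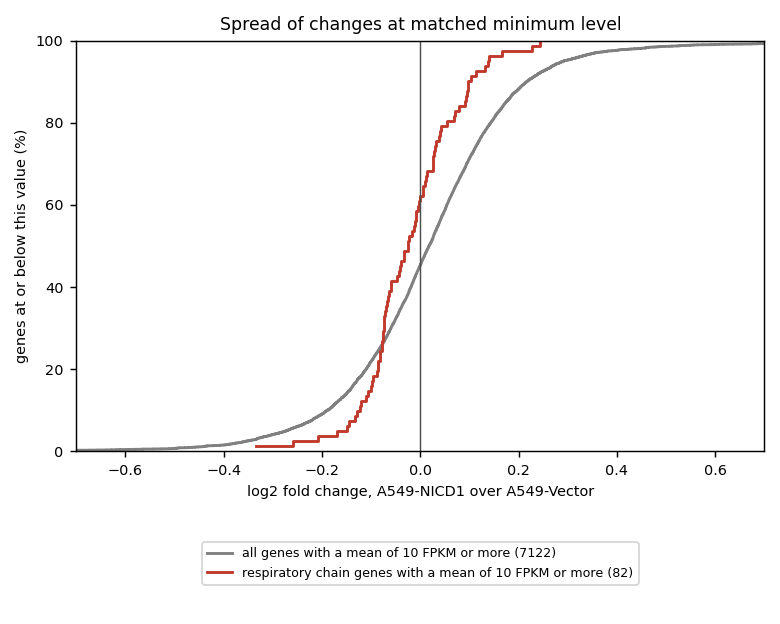
Cumulative share of genes, in percent, at or below each log2 fold change (A549-NICD1 over A549-Vector, 1 library each), for the 82 members and all 7122 genes with a mean of 10 FPKM or more. The members' curve is steeper, with an interquartile range of 0.11 against 0.20 for all genes. Only the minimum level is matched, and the members have a higher median level.

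Within this narrow range, more members were lower than higher in A549-NICD1. The log2 fold change was below 0 in 54 of 88 members and above 0 in 34, against 51.1% of all genes below 0, and the median was -0.02 beside -0.01 for all genes. Without the scaling step, 69 members were below 0 and 19 above, so these counts rest on the scaling. The median of all genes then fell as well, to -0.06, beside -0.08 for members. The members' median lay 0.02 below that of all genes both with and without the scaling step. The scaling moves every log2 fold change by about the same amount, so it could hardly have altered this gap. The counting interval was wholly below 0 in 28 members, or 31.8%, and wholly above 0 in 14, or 15.9%, and it held 0 in 46. Over all genes the interval was wholly below 0 in 31.1%, wholly above 0 in 29.9% and held 0 in 38.9%. The share of members below was thus near that of all genes, and the share above was smaller. Among genes with a mean of 10 FPKM or more, 62.2% of the 82 members against 45.4% of all genes were below 0. The interval was wholly below 0 in 32.9% of these members against 28.1% of such genes, and wholly above 0 in 14.6% against 36.9%. The median at such levels was -0.02 for members and 0.02 for all genes.

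The complexes differed little from one another. The median log2 fold change of the structural subunits was -0.04 in complex I, -0.06 in complex II, -0.06 in complex III, -0.01 in complex IV and -0.05 in complex V. Each of these medians stayed below 0 under the 3 other scalings tried. Those scalings lower every log2 fold change, so they could not have raised a median above 0. The number of subunits below 0 was 23 of 37 in complex I, 3 of 4 in complex II, 7 of 8 in complex III, 7 of 11 in complex IV and 9 of 15 in complex V. The subunits ran from -0.17 for UQCR11 to 0.01 for UQCRC2 in complex III, and from -0.11 for COX5B to 0.09 for COX7A2 in complex IV.

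**Figure D3:**
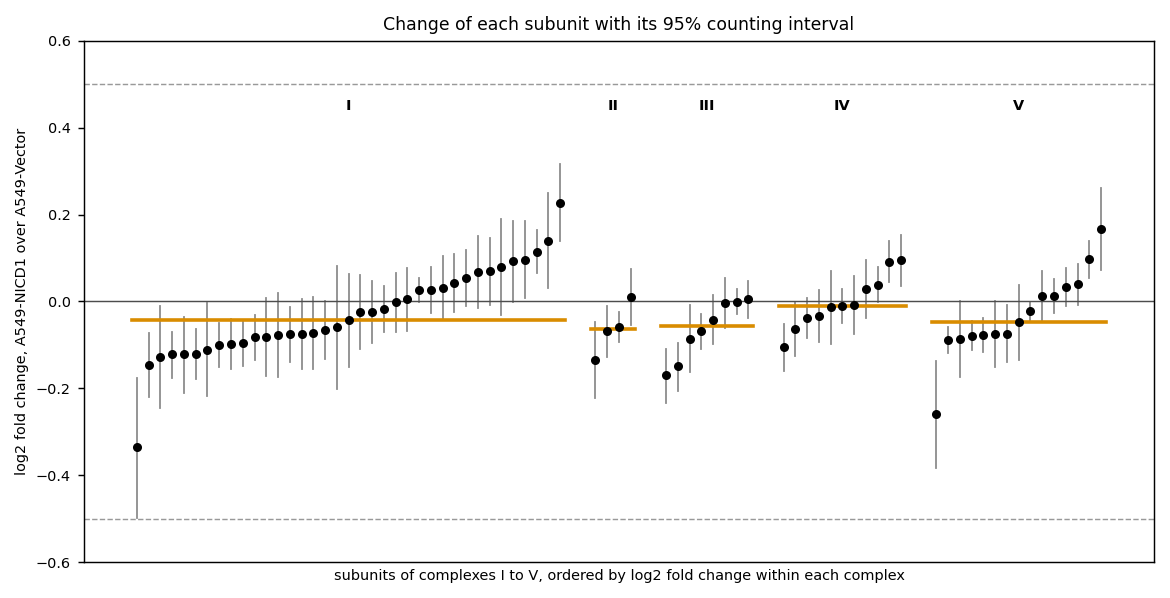
Log2 fold change of each structural subunit (points, A549-NICD1 over A549-Vector) with its 95% counting interval (bars), by complex and ordered within it, with the median of each complex (orange) and dashed lines at 0.5 and -0.5. All 75 points lie between the dashed lines, from -0.34 for NDUFB1 to 0.23 for NDUFB2.

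Complex I is the entry point for electrons from NADH. Its core subunits carry the flavin and the iron-sulfur clusters, and 7 of them are encoded in the nucleus. The 7 had a median log2 fold change of -0.02, with 5 below 0 and 2 above, although without the scaling step 7 of 7 were below 0. NDUFV1, which holds the flavin where NADH is oxidised, was at 76.2 FPKM in A549-Vector against 72.4 in A549-NICD1 (log2 fold change -0.02, interval -0.07 to 0.04). NDUFS1, an iron-sulfur subunit of the NADH-oxidising module, was at 37.9 FPKM in A549-Vector against 33.4 in A549-NICD1 (-0.12, interval -0.18 to -0.07). The interval of NDUFS1 left out 0, and that of NDUFV1 held it.

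The accessory subunits of complex I surround the core and are needed for its assembly and stability. The 13 NDUFA subunits had a median log2 fold change of -0.04, with 8 below 0. NDUFA13, the most abundant subunit of complex I, was at 195.8 FPKM in A549-Vector against 175.8 in A549-NICD1 (-0.10, interval -0.16 to -0.04). The 11 NDUFB subunits, which sit in the membrane arm, had a median of -0.08, with 8 below 0 and 3 above. This group held both ends of the range. NDUFB1 was at 36.0 FPKM in A549-Vector against 27.4 in A549-NICD1, from 735 and 559 reads (-0.34, interval -0.50 to -0.18), the lowest log2 fold change of the 88 members. NDUFB2 was at 81.7 FPKM in A549-Vector against 91.9 in A549-NICD1 (0.23, interval 0.14 to 0.32), the highest of the structural subunits. The other 6 accessory subunits had a median of 0.06, which was 0.00 without the scaling step.

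The NDUFAF genes code for factors that build complex I and leave it afterwards. Of these 8, 4 were above 0 and 4 below, and the median log2 fold change of 0.05 became -0.01 without the scaling step. NDUFAF6 was at 5.56 FPKM in A549-Vector against 6.55 in A549-NICD1 (0.29, interval 0.04 to 0.54), and NDUFAF4 was at 18.0 and 20.5 FPKM (0.24, interval 0.16 to 0.33). NDUFAF3 went the other way, at 109.6 FPKM in A549-Vector against 91.2 in A549-NICD1 (-0.21, interval -0.25 to -0.17). NDUFAF3 and NDUFAF4 are known to work together in one early assembly step, and their intervals lay on opposite sides of 0.

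Complex II, succinate dehydrogenase, is also an enzyme of the citric acid cycle, and all its subunits are nuclear. SDHA, the flavoprotein that oxidises succinate, was at 110.3 FPKM in A549-Vector against 101.8 in A549-NICD1 (-0.06, interval -0.09 to -0.02). SDHB, which carries the iron-sulfur clusters, was at 87.1 and 79.9 FPKM (-0.07, interval -0.13 to -0.01). Of the membrane anchors, only SDHC had an interval that left out 0. SDHC was at 34.7 FPKM in A549-Vector against 30.4 in A549-NICD1 (-0.13, interval -0.22 to -0.05). SDHD was at 60.7 and 58.7 FPKM (0.01, interval -0.05 to 0.07), and was below 0 at -0.05 without the scaling step.

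Complex III hands electrons from ubiquinol to cytochrome c. The 3 members of the core and Rieske group had a median log2 fold change of -0.00. UQCRFS1, the Rieske iron-sulfur protein, was at 108.5 FPKM in A549-Vector against 104.3 in A549-NICD1 (-0.00, interval -0.03 to 0.03). UQCRC1, a core subunit, was at 132.9 and 121.9 FPKM (-0.07, interval -0.11 to -0.03). The 5 small subunits had a median of -0.09 and were all below 0, with intervals wholly below 0 in 3. Of all genes, 51.1% were below 0 and 31.1% had an interval wholly below 0, and 5 genes are too few to compare with these shares. Their values overlapped those of the core, with UQCRB at -0.00 and UQCR10 at -0.04. UQCRH, the hinge subunit, was at 176.7 FPKM in A549-Vector against 153.2 in A549-NICD1 (-0.15, interval -0.21 to -0.09). UQCR11 was at 70.1 and 59.9 FPKM (-0.17, interval -0.23 to -0.11), from 4548 and 3880 reads. UQCRHL, an intronless copy of UQCRH with nearly the same sequence, was listed at 4.55 FPKM in A549-Vector against 4.71 in A549-NICD1, and reads of both genes cannot be told apart with confidence. CYC1, the cytochrome subunit of complex III whose symbol the rule does not take, had a log2 fold change of -0.04, and CYCS, the mobile carrier cytochrome c, one of 0.11.

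Complex IV, cytochrome c oxidase, had the highest median level per length. The median level of its 11 widely used nuclear subunits was 198.6 FPKM in A549-Vector against 194.8 in A549-NICD1, against 67.0 and 64.6 FPKM for the 37 subunits of complex I. In A549-Vector the median was 73.9 FPKM in complex II, 97.1 in complex III and 105.6 in complex V. COX7C was the highest of complex IV, at 404 and 378 FPKM (-0.04, interval -0.08 to 0.01). COX4I1, the largest nuclear subunit, was at 262.6 FPKM in A549-Vector against 250.9 in A549-NICD1 (-0.01, interval -0.05 to 0.03). COX5A was at 198.6 and 194.8 FPKM (0.03, interval -0.04 to 0.09, and -0.03 without the scaling step). The lowest level was that of NDUFA4, named for complex I but counted with complex IV, at 37.4 FPKM in A549-Vector against 35.7 in A549-NICD1 (-0.01, interval -0.08 to 0.06). These 4 subunits thus had intervals that held 0, as did 7 of the 11. The interval was wholly below 0 in 2, COX5B and COX7B, and wholly above 0 in 2, COX7A2 and COX8A. Over all genes the shares were 38.9% holding 0, 31.1% wholly below and 29.9% wholly above. COX7A2L, a factor that joins complexes III and IV into supercomplexes, was at 48.8 and 51.6 FPKM (0.14, interval 0.06 to 0.21).

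Several subunits of complex IV have a second gene that is used in muscle, testis or lung, or under low oxygen. In both libraries the widely used gene held nearly all of the summed FPKM of each such pair, and its lowest share was 98.5%, for NDUFA4 in A549-NICD1. COX4I2, the isoform linked to low oxygen, had 0 reads in A549-Vector and 1 read in A549-NICD1. COX6A2, a muscle isoform, had 0 reads and 1 read, COX8C had 1 read and 0 reads, and COX7B2 had 0 in both, where a count of 0 allows up to 3 reads. No fold is given for these 4 genes. COX6B2, a testis isoform, was at 0.433 FPKM in A549-Vector against 0.446 in A549-NICD1, from 35 and 36 reads (0.08, interval -0.61 to 0.81).

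The members with the largest log2 fold changes were isoforms of this kind, both at low levels. NDUFA4L2, a paralog of NDUFA4 known as a gene induced by low oxygen, was at 0.104 FPKM in A549-Vector against 0.555 in A549-NICD1, from 6 and 32 reads (1.71, interval 1.20 to 4.02). Its share of the summed FPKM of NDUFA4 and NDUFA4L2 was 0.277% in A549-Vector and 1.53% in A549-NICD1. It stayed under 1 FPKM in both libraries and so was not among the 88 members counted above. COX7A1, a muscle isoform of subunit VIIa, was at 0.540 FPKM in A549-Vector against 1.05 in A549-NICD1, from 20 and 39 reads (0.90, interval 0.21 to 1.88). Its share of the summed FPKM of COX7A1 and COX7A2 was 0.397% and 0.752%. COX7A2, the gene used in most tissues, was at 135.5 and 139.1 FPKM (0.09, interval 0.04 to 0.15). Both isoforms were scarce beside their partners, and both log2 fold changes were under 0.5 when 1 FPKM was added in place of 0.1.

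**Figure D4:**
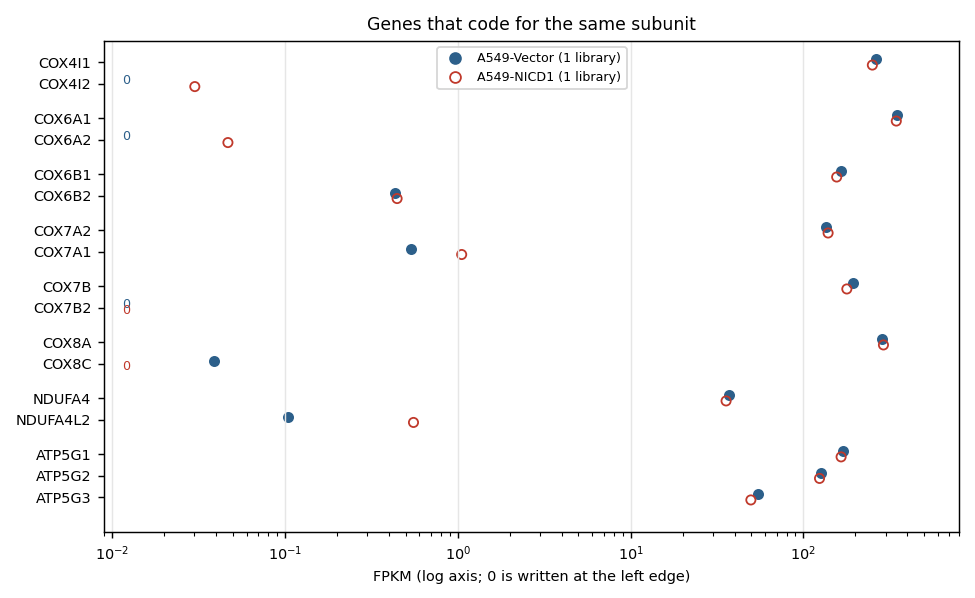
Levels of genes that code for the same subunit, in FPKM on a log axis, in A549-Vector (filled) and A549-NICD1 (open), with 1 library per group and values of 0 written at the left edge. The second isoforms of complex IV lie at 1.05 FPKM or below, and NDUFA4L2 and COX7A1 show the widest gaps among the pairs with reads in both libraries.

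Complex V makes ATP in a catalytic head that a rotating ring of c subunits drives. Of the 5 head subunits, 4 were below 0, with a median log2 fold change of -0.07. ATP5A1, the alpha subunit, was at 193.8 FPKM in A549-Vector against 175.4 in A549-NICD1 (-0.09, interval -0.12 to -0.06). ATP5B, the beta subunit that forms ATP, had a log2 fold change of -0.02 (interval -0.04 to -0.00), a narrow interval that rests on 40765 and 38540 reads. ATP5C1, the gamma subunit of the central shaft, was at 200.1 and 194.2 FPKM (0.01, interval -0.03 to 0.05, and -0.04 without the scaling step).

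The c subunit is made from 3 genes that give the same mature protein. ATP5G1 held 48.5% of their summed FPKM in A549-Vector and 48.8% in A549-NICD1, ATP5G2 held 35.9% and 36.6%, and ATP5G3 held 15.5% and 14.7%. Their log2 fold changes were 0.01, 0.03 and -0.08, and without the scaling step the 3 were below 0. ATP5G3, the lowest subunit of complex V, was at 54.6 FPKM in A549-Vector against 49.7 in A549-NICD1, with a length of at least 2887 bases behind its value.

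The stator holds the head in place. Its peripheral stalk, with 4 genes, had a median log2 fold change of 0.07, with 3 above 0, or 0.01 and 2 above 0 without the scaling step. The interval was wholly above 0 in 2 of the 4, against 29.9% of all genes, and ATP5H was below 0 at -0.07. ATP5J, coupling factor 6 of the stalk, was at 60.9 FPKM in A549-Vector against 65.7 in A549-NICD1 (0.17, interval 0.07 to 0.26). The membrane subunits e, f and g, which help ATP synthase form dimers, were 3 of 3 below 0, with a median of -0.09, but the intervals of 2 held 0. ATP5I, the gene of subunit e, was at 68.3 FPKM in A549-Vector against 54.9 in A549-NICD1, from 1212 and 972 reads (-0.26, interval -0.38 to -0.14). Among the members not counted for low values, ATP5L2, a copy of the gene of subunit g, had 11 reads in each library. The readthrough genes NDUFC2-KCTD14 and ATP5J2-PTCD1 were listed at 0 in both libraries, where reads shared with NDUFC2 and ATP5J2 cannot be told apart.

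The log2 fold changes of members were also set beside their promoter letters, as a description. The median log2 fold change was -0.03 in the 16 members with NRF1 letters and -0.02 in the 55 without. It was -0.07 in the 20 members with the ETS core, which ran from -0.26 to 0.24, and -0.01 in the 51 without. It was 0.03 in the 11 members with YY1 letters and -0.03 in the 60 without. The 8 members with RBPJ letters had a median of 0.01 and ran from -0.11 to 0.09, and the 63 without had a median of -0.03. As the printed promoters show, UQCR11 and ATP5I had both NRF1 and ETS matches with log2 fold changes of -0.17 and -0.26, while SDHD, with the same pair of elements, was at 0.01.

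A list of 12 regulators held factors of these nuclear genes and others that act on mitochondrial DNA. Of the 12, 0 passed 0.5 on the log2 scale in either direction, where 7.02% of all genes did. That share is less than 1 gene of 12. NRF1 was at 7.65 FPKM in A549-Vector against 7.54 in A549-NICD1 (0.04, interval -0.08 to 0.15). GABPA was at 20.6 and 21.2 FPKM (0.10, interval 0.05 to 0.16), and its partner GABPB1 at 13.9 and 15.4 FPKM (0.20, interval 0.14 to 0.27). YY1 was at 58.7 and 55.6 FPKM (-0.02, interval -0.05 to 0.01). The coactivator PPARGC1A, known as a driver of mitochondrial biogenesis, was at 1.98 FPKM in A549-Vector against 1.40 in A549-NICD1 (-0.42, interval -0.63 to -0.27), the lowest of the list. Its relatives had log2 fold changes of -0.14 for PPARGC1B and 0.21 for PPRC1. ESRRA, a nuclear receptor that works with these coactivators, was at 0.06. The genes for copying and transcribing mitochondrial DNA lay between 0.02 for POLRMT and 0.11 for TFB2M, with TFAM at 0.05 and TFB1M at 0.08, and without the scaling step NRF1, TFAM and POLRMT were below 0.

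Other mitochondrial and metabolic lists were read against the same 7.02% of all genes past 0.5 in either direction. Of 47 assembly factors outside the rule, 0 passed, with a median log2 fold change of -0.01. Of 77 mitochondrial ribosomal protein genes, 0 passed, with a median of 0.07, 50 above 0 and 27 below, or 0.01, 41 above and 36 below without the scaling step. Of 14 genes of the citric acid cycle, 0 passed, with a median of -0.06 and 9 below 0. Of 17 genes of glycolysis, 0 passed, with a median of -0.11 and 14 below 0. Of 74 cytosolic ribosomal protein genes, 0 passed, with a median of 0.01 that was -0.04 without the scaling step. Since NDUFA4L2 is known as a target of the low-oxygen factor HIF, 12 such targets were read beside it. Of the 11 of these with 1 FPKM or more, 2 were higher by over 0.5, against 3.04% of all genes. These were SLC2A1 at 0.80 and ADM at 0.70, both named after their values were seen. Another 5 were below 0, the lowest BNIP3 at -0.36. The counting interval was wholly above 0 in 4 of the 11, against 29.9% of all genes, and wholly below 0 in 5, against 31.1%. The median was 0.01, or -0.05 without the scaling step. The subunits encoded in mitochondrial DNA could not be analysed, since 0 of the 26 symbols searched for them were among the genes measured.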

How the data were processed

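mRNA sequencing of A549-NICD1 and A549-Vector gave 1 library per group, grouped by the labels. The submitters' processing notes name Bowtie2, HTSeq and hg38, with no versions. The authors deposited 1 value per gene and library, read here as FPKM from the values, since the unit and the gene lengths used are not given in the sources used here. Of 19225 rows, 27 named by numbers were left out.

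Depth was the value at which the lengths of low genes came out whole, using 1714 genes, of which 1145 did and 144 equalled a GENCODE 29 transcript length. Reads followed from it. Reads of one gene may be off by a whole-number factor, chosen with GENCODE 29 lengths, which would alter its interval but not its ratio. Scaling was a trimmed mean of log2 ratios (30% of ratios and 5% of levels trimmed at each end, factor 0.962). Genes with 1 FPKM or more in a library were counted. Python 3.11.15, NumPy 2.4.6, pandas 2.3.3 and SciPy 1.17.1 were used. Scripts were tested on simulated data. With 1 library per group, the Wald test of the study's methods was not run.

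Members and gene lists were chosen with earlier results of these data known. The genes named were the highest and lowest level per complex, catalytic subunits, the 4 highest and 4 lowest log2 fold changes at a mean of 5 FPKM or more, isoform pairs, uncertain copies, and regulators. The rest were named after their values were seen. The values of 1 member are not reported here.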

Additional observations from a re-analysis of the deposited data

How the results depend on the processing

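The count of members higher by over 0.5 on the log2 scale was 1, and became 0 when 1 FPKM was added, 0 among members with a mean of 10 FPKM or more, 0 among structural subunits only, and 3 with no filter on low values. The 3 are COX7A1, NDUFA4L2 and COX6A2, the last resting on 1 read, and in each setting the rule on low values, the added FPKM or the class of COX7A1, a tissue isoform, sets the count. The count of members lower by over 0.5 was 0 in every setting run. Without the scaling step the median log2 fold change was -0.10 in complex I, -0.12 in complex II, -0.11 in complex III, -0.07 in complex IV and -0.10 in complex V. All 5 moved down by about as much as the median of all genes, which became -0.06, and only in complexes III and V was this shift larger than the usual half-width of a counting interval there. The medians of all members and of complexes I to V stayed below 0 in every setting. The other scalings lower every log2 fold change, so they could not have raised these medians above 0. Of 39 named members, 16 left their counting interval and 5 changed sign without the scaling step, and 1 left it and 2 changed sign with equal sums, where NOTCH1 and RFC4 were set aside. NDUFA4L2 was at 0.50 with 1 FPKM added. No paired analysis was possible because each group had 1 library. For the same reason no library could be left out, so 1 library decides every value, and a change in the cells cannot be told apart from a difference in how a library was made. Depth leaves intervals about 0.07 wide on either side for a usual member, and far wider for isoforms with under 40 reads.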
